A study of Mus musculus with 2 samples.

Results

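The aminoacyl-tRNA synthetases, the enzymes that load amino acids onto their tRNAs, were examined in granulocyte-monocyte progenitors (GMPs) from the bone marrow of non-tumor-bearing (NTB) mice and of mice bearing 4T1 mammary tumors. The members were taken by gene symbol, as the genes of this enzyme family. They comprised 20 genes for cytosolic synthetases, 16 genes for mitochondrial synthetases and 3 genes for the scaffold proteins of the multi-tRNA synthetase complex. These 39 genes were all found among the 24421 gene symbols measured, and all 39 had a mean level of at least 1 RPKM (reads scaled by library size and by the length of the gene).

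A synthetase typically recognizes 1 amino acid and its tRNAs, and joins them at the cost of ATP, so that the ribosome receives the right amino acid at each codon. Cytosolic enzymes serve the translation of nuclear-encoded mRNAs. A separate set, also encoded in the nucleus and imported, serves the mitochondrial ribosome, which makes a small set of respiratory chain subunits. Several cytosolic enzymes are held together in a complex by scaffold proteins. Synthetases fall into class I and class II by the fold of their catalytic site. Many cytosolic synthetase genes are also known as targets of ATF4, the transcription factor whose translation rises when uncharged tRNAs activate the kinase GCN2 (gene Eif2ak4).

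The groups were labelled NTB-GMP, the control, and 4T1-GMP, from mice in which 4T1 mammary tumor cells had been implanted orthotopically. Both came from female mice of an F1 semi-syngeneic background (H-2b/d), and the labels gave no age. GMPs had been purified by flow cytometry directly from the marrow. The gates used for these libraries were not given in the sources used here; for its culture experiments, the study sorted GMPs from lineage-depleted marrow by the surface markers CD150, CD16/32, Sca-1 and c-Kit. Each group was 1 library, and whether mice were pooled was not stated for these libraries. No spread between mice could be measured and no test between the groups was possible, so every difference below compares these libraries. Intervals are 95% Clopper-Pearson intervals on the reads recovered from each value, which are lower bounds. They cover counting error only, and they take reads as independent molecules, which PCR reads without molecular identifiers are not.

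The library sizes behind the RPKM were 10180365 for NTB-GMP and 30016263 for 4T1-GMP, a ratio of 2.95. A scaling factor had entered these sizes, so they are not plain counts of reads. The ribosomal RNA gene Rn45s took 17% of the NTB-GMP library size and 6.98% of that of 4T1-GMP. Over the 10378 genes with a mean of at least 1 RPKM, the median log2 ratio (4T1-GMP over NTB-GMP, on the log2(RPKM + 0.1) scale) was 0.05, and leaving Rn45s out of both library sizes lowered log2 ratios by 0.16. All 10 markers of GMPs and primary granules were present in both libraries, 7 higher and 3 lower in 4T1-GMP, with a summed level of 10660 RPKM in NTB-GMP against 16380 RPKM in 4T1-GMP. Markers of mature neutrophils were higher in 4T1-GMP for 13 of 13 genes, with a summed level of 521 RPKM in NTB-GMP against 4083 RPKM in 4T1-GMP. Monocyte and dendritic markers were lower for 12 of 12 genes, with a summed level of 185 RPKM against 37.15 RPKM, and basophil, mast cell and eosinophil markers were lower for 8 of 8 genes, with 1796 RPKM against 645.4 RPKM. No marker of these last 3 lists was at 0 in either library. Lymphoid markers (8 genes, 4 higher and 4 lower) summed to 205.8 RPKM and 350.2 RPKM, with Vpreb1 and Cd3e among those at 0 in at least 1 library. Stem and early progenitor markers (4 higher and 4 lower) summed to 32.63 RPKM and 18.39 RPKM, and Ly6a was at 0 in 1 library. Among erythroid and megakaryocyte markers (1 higher and 5 lower), summing to 20.6 RPKM and 6.106 RPKM, Hbb-b1 and Hba-a1 were at 0. Of the 6 epithelial markers, which tumor cells could carry, Epcam, Krt14 and Krt5 were at 0 in both libraries. Another 1 was higher and 2 were lower, and the list summed to 18.26 RPKM and 10.05 RPKM. The part of cell makeup in the synthetase values was not tested. In bulk RNA, fewer cells of a type and less RNA per cell cannot be told apart.

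Cytosolic synthetase genes stood higher in 4T1-GMP than in NTB-GMP almost throughout, whereas mitochondrial synthetase genes lay on both sides of 0. Of the 20 cytosolic genes, 19 had a higher RPKM in 4T1-GMP (95%), against 54.7% of all genes tested. Their median level was 38.98 RPKM in NTB-GMP against 53.75 RPKM in 4T1-GMP, and their median log2 ratio was 0.40, a 1.32-fold difference, with an interquartile range of 0.32 to 0.50. Of the 16 mitochondrial genes, 9 were higher (56.2%), with a median log2 ratio of 0.01 that became -0.15 once Rn45s was taken out of the library sizes and -0.04 when ratios were centered on the median of all genes. The median of the cytosolic genes kept its sign under each scaling but was 0.23 without Rn45s and 0.21 after quantile normalization of the libraries.

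The differences were modest in size and shared by many cytosolic genes. A 1.5-fold difference was passed by 1 cytosolic gene, no mitochondrial gene and 1 scaffold gene, all upward, and by no member downward, where 9.8% of all genes tested were at least 1.5-fold higher and 11.6% at least 1.5-fold lower. These calls depended on the scaling. Cars fell short of 1.5-fold with a pseudocount of 1, after quantile normalization, without Rn45s and when centered, and Eef1e1 fell short after quantile normalization (log2 ratio 0.54) and without Rn45s (0.48). Without Rn45s, the mitochondrial Ears2 (-0.62) and Fars2 (-0.59) passed it downward. By at least 25%, 14 cytosolic genes (70%), 1 mitochondrial gene (Iars2) and 2 scaffold genes were higher, against 25.2% of all genes. Lower by at least 20%, the same fold in the other direction, were 2 mitochondrial genes (Ears2 and Fars2) and no cytosolic or scaffold gene, against 21.7% of all genes. Scaling moved these calls too. Without Rn45s, Eprs (log2 ratio 0.25), Farsa (0.20), Farsb (0.22), Iars2 (0.19) and Aimp2 (0.19) were less than 25% higher. The shift of 0.16 also took Nars (0.42 as deposited), Rars (0.39) and Dars (0.38) below that limit. Vars (-0.34), Cars2 (-0.37) and, from -0.18 as deposited, Vars2 passed the lower limit. Among the 25 members rescaled singly, Aars, Cars, Mars, Yars and Eef1e1 stayed at least 25% higher without Rn45s and after quantile normalization. As deposited, the 95% interval of the reads lay wholly above 0 for 18 cytosolic, 4 mitochondrial and 3 scaffold genes, and for 36.3% of all genes tested. It lay wholly below 0 for 1 cytosolic and 3 mitochondrial genes, and for 28% of all genes tested. The lower bounds of Qars (0.089), Sars (0.161), Aimp1 (0.088) and Aimp2 (0.153) were smaller than the shift of 0.164 from leaving out Rn45s. The intervals of all genes narrow with the recovered reads, which are lower bounds because a common factor can be lost. Cytosolic members had 375 to 2630 recovered reads in NTB-GMP, whereas the mitochondrial members other than Lars2 had 90 to 345.

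Expression level itself went with the log2 ratio in these libraries. The 4238 genes whose mean RPKM lay within the span of the cytosolic synthetases had a median log2 ratio of 0.15, 67.4% of them were higher in 4T1-GMP, and 29% were higher by at least 25%. The 7221 genes within the span of the mitochondrial synthetases without Lars2 had a median of -0.01, with 49% higher. Beside genes of like level, the cytosolic median was thus 0.40 against 0.15 and the mitochondrial median 0.01 against -0.01. After quantile normalization, which equalizes levels rank by rank, the same medians were 0.21 against 0.01 for the cytosolic span and 0.04 against 0.00 for the mitochondrial span, and the difference between the cytosolic and mitochondrial medians was 0.16 in place of 0.38.

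**Figure D1:**
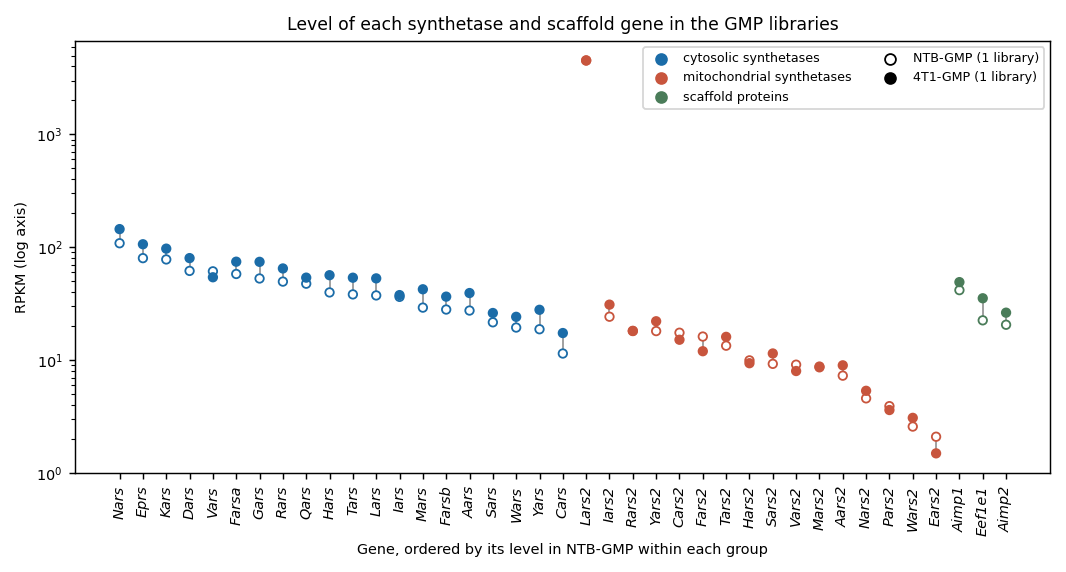
Level of each member gene in RPKM (log axis), with open circles for the NTB-GMP library and filled circles for the 4T1-GMP library, ordered by level in NTB-GMP within cytosolic synthetases (blue), mitochondrial synthetases (red) and scaffold proteins (green). Filled circles lie above open ones for 19 of 20 cytosolic genes, Vars being the exception as deposited (Iars also turns lower once Rn45s is taken out of the library sizes), and Lars2 stands at 4517 RPKM and 4531 RPKM.

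**Figure D2:**
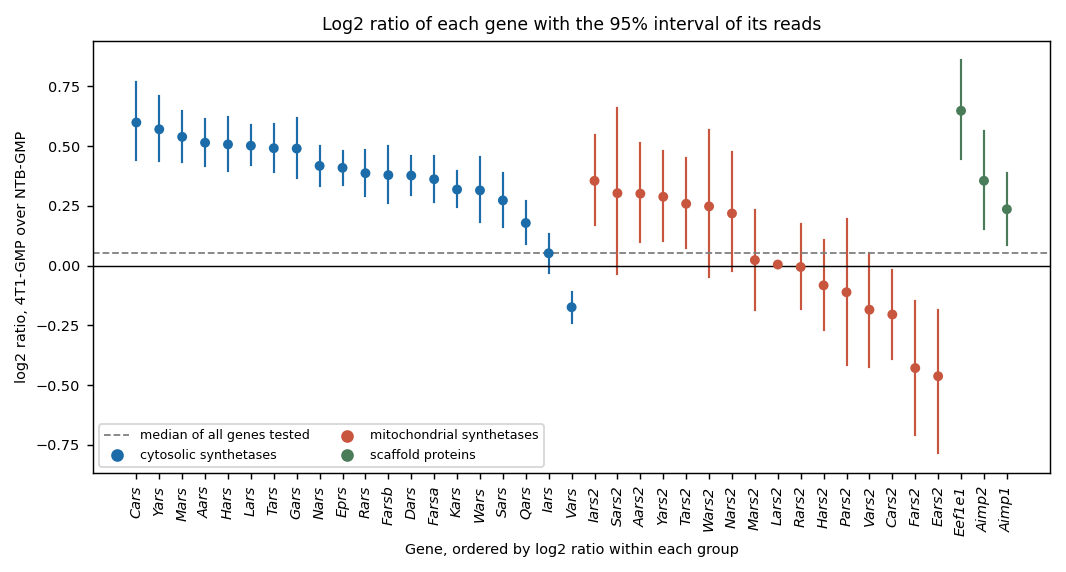
Log2 ratio of each member (4T1-GMP over NTB-GMP, log2(RPKM + 0.1) scale, vertical axis), with bars for the 95% interval of its reads, ordered within each group. The dashed line is the median of all genes tested (0.05), and 18 cytosolic bars lie wholly above 0 against 4 mitochondrial ones; leaving Rn45s out of the library sizes would move every point down by 0.16 and turn the mitochondrial median from 0.01 to -0.15.

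Among the 8 cytosolic enzymes of the multi-tRNA synthetase complex, all 8 were higher in 4T1-GMP as deposited, with a median log2 ratio of 0.38. Eprs, a single chain that charges both glutamate and proline tRNAs, measured 80.04 RPKM in NTB-GMP against 106.3 RPKM in 4T1-GMP, from 1976 and 7737 reads, a log2 ratio of 0.41 (95% interval 0.34 to 0.48). Mars, the methionyl enzyme that charges both initiator and elongator tRNAs, measured 29.17 RPKM and 42.41 RPKM, from 880 and 3772 reads, a log2 ratio of 0.54 (0.43 to 0.65), the highest of the complex. Lars, the leucyl enzyme, which is also known as a leucine sensor for mTORC1, measured 37.4 RPKM and 52.98 RPKM from 1449 and 6052 reads, a log2 ratio of 0.50 (0.42 to 0.59). By level, Eprs was at place 2 of the cytosolic set in both libraries, Lars at place 12, and Mars at place 14 in NTB-GMP and 13 in 4T1-GMP. Rars, the arginyl enzyme, had 49.6 RPKM and 64.86 RPKM and a log2 ratio of 0.39. Dars, the aspartyl enzyme, had 61.7 RPKM and 80.12 RPKM and a log2 ratio of 0.38. Kars, whose gene makes the lysyl enzyme of both cytosol and mitochondria, had 77.95 RPKM and 97.2 RPKM, from 1810 and 6655 reads, and a log2 ratio of 0.32 (0.24 to 0.39) that was 0.08 after quantile normalization and 0.15 without Rn45s.

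The remaining enzymes of the complex, Qars and Iars, showed the smallest differences within it. Qars, the glutaminyl enzyme, measured 47.53 RPKM in NTB-GMP against 53.78 RPKM in 4T1-GMP from 1317 and 4394 reads, a log2 ratio of 0.18 (0.09 to 0.27) that was -0.02 after quantile normalization. Iars, the isoleucyl enzyme, measured 36.33 RPKM and 37.66 RPKM from 1626 and 4969 reads, a log2 ratio of 0.05 (-0.03 to 0.13) that was -0.10 after quantile normalization and -0.11 without Rn45s. Iars was the cytosolic gene whose interval held 0, and it sat at the median of all genes.

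The scaffold proteins that hold this complex together were each higher in 4T1-GMP, under each scaling used. Eef1e1 (also called AIMP3), which binds the methionyl enzyme, measured 22.5 RPKM and 35.3 RPKM from 238 and 1101 reads, a log2 ratio of 0.65 (0.45 to 0.86) and a 1.57-fold difference, the highest ratio of the 39 members, above that of 91.98% of all genes tested. Aimp2, the core scaffold to which several of the enzymes bind, measured 20.56 RPKM and 26.31 RPKM from 248 and 936 reads, a log2 ratio of 0.35 (0.15 to 0.56). Aimp1, which binds the arginyl enzyme and can be secreted as a cytokine, measured 41.67 RPKM and 49.08 RPKM from 476 and 1653 reads, a log2 ratio of 0.24 (0.09 to 0.39) that was 0.04 after quantile normalization and 0.07 without Rn45s. The log2 ratios of the 3 scaffold genes lay between 0.24 and 0.65, and those of the 8 enzymes of the complex between 0.05 and 0.54.

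The 12 cytosolic synthetases outside the complex had a median log2 ratio of 0.45, and 11 of 12 were higher in 4T1-GMP as deposited. The cysteinyl enzyme Cars (chr7:143557230-143600090, RefSeq on GRCm38.p6, as for all positions below) had the lowest level of the cytosolic set in both libraries and the highest ratio in it, with 11.43 RPKM in NTB-GMP against 17.36 RPKM in 4T1-GMP, from 375 and 1679 reads, a log2 ratio of 0.60 (0.44 to 0.77) and a 1.51-fold difference. It was the cytosolic gene past 1.5-fold, and stood just over that line. Yars, the tyrosyl enzyme, measured 18.76 RPKM and 27.9 RPKM from 549 and 2407 reads, a log2 ratio of 0.57 (0.44 to 0.71). Aars, the alanyl enzyme, measured 27.47 RPKM and 39.27 RPKM from 1039 and 4379 reads, a log2 ratio of 0.51 (0.42 to 0.61). Hars, the histidyl enzyme, measured 39.76 RPKM and 56.53 RPKM from 805 and 3375 reads, a log2 ratio of 0.51 (0.40 to 0.62). With Mars of the complex, these were the 5 highest ratios of the cytosolic set.

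Gars, which makes the glycyl enzyme of both compartments from 1 gene, measured 52.85 RPKM and 74.24 RPKM from 643 and 2663 reads, a log2 ratio of 0.49 (0.37 to 0.62). Tars, the threonyl enzyme, had 38.2 RPKM and 53.71 RPKM and a log2 ratio of 0.49. Nars, the asparaginyl enzyme, had the highest level of the cytosolic set in both libraries, with 108.5 RPKM and 144.8 RPKM, and a log2 ratio of 0.42. The enzyme at the top of the set and the enzyme at its foot, Nars and Cars, were thus both higher in 4T1-GMP. Phenylalanyl-tRNA synthetase is built from an alpha chain (Farsa) and a beta chain (Farsb). Farsa measured 57.95 RPKM and 74.46 RPKM from 1079 and 4088 reads, a log2 ratio of 0.36 (0.26 to 0.46), and Farsb measured 28.05 RPKM and 36.49 RPKM from 725 and 2781 reads, a log2 ratio of 0.38 (0.26 to 0.50). The level of Farsb over Farsa was 0.484 in NTB-GMP and 0.49 in 4T1-GMP, so the chains kept almost the same proportion. Wars, the tryptophanyl enzyme, which is also induced by interferon gamma, measured 19.42 RPKM and 24.17 RPKM from 570 and 2092 reads, a log2 ratio of 0.31 (0.18 to 0.45). Sars, the seryl enzyme, measured 21.61 RPKM and 26.13 RPKM from 815 and 2905 reads, a log2 ratio of 0.27 (0.16 to 0.39).

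Vars (chr17:35000907-35016329), the valyl enzyme, was the cytosolic synthetase that was lower in 4T1-GMP under each scaling used. It measured 61.16 RPKM in NTB-GMP against 54.19 RPKM in 4T1-GMP from 2630 and 6871 reads, a log2 ratio of -0.17 (-0.24 to -0.11). By level it held place 5 of the cytosolic set in NTB-GMP and place 9 in 4T1-GMP. The places of the first 4 genes, Nars, Eprs, Kars and Dars, did not differ between the libraries, nor did place 20, that of Cars. Class did not separate the cytosolic genes by their middle values, with a median log2 ratio of 0.39 for the 9 class I genes and 0.40 for the 10 class II genes (Eprs, which has both kinds of domain, was left out). The class II genes lay within a narrower range, from 0.27 to 0.51, whereas class I held both Cars at 0.60 and Vars at -0.17.

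Of the cytosolic genes, 12 (Aars, Cars, Eprs, Gars, Iars, Lars, Mars, Nars, Sars, Tars, Wars and Yars) had been listed as known targets of the amino acid response. All 12 were higher in 4T1-GMP as deposited, with Iars the gene that turned lower under quantile normalization and without Rn45s, and their median log2 ratio was 0.49. The other 8 had a median of 0.37, with 7 higher. Promoters of RefSeq on the mouse build GRCm38.p6 (250 bases before to 50 bases after the start site) were at hand for 29 of the 39 members. The core of the amino acid response element was searched as TGATGNAA on both strands, where N is any base. It was found in 5 of the 12 cytosolic genes with a promoter (41.7%), in none of 14 mitochondrial genes and in none of 3 scaffold genes, against 3.97% of all 32851 promoters and 2.06% of those of genes tested. Here and below, members were counted by gene, through any of their promoters (31 for these 29 genes). The shares of all promoters and of those of genes tested count single promoters. The 5 genes were Aars, Gars, Iars, Tars and Yars, all among the 7 amino acid response genes that had a promoter, and none of the 5 other cytosolic genes held it. Their stretches are shown because they carry the motif that these genes share, with the motif in capitals, in the gene's own direction. In Aars, a second motif in capitals is CACGTG, and in Aars, Gars, Iars and Tars the element reads as its reverse complement.
Aars, chr8:111033690-111033749, plus strand, positions -152 to -93: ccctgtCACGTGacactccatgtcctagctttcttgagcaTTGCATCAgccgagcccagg
Gars, chr6:55037960-55037989, plus strand, element from position -30: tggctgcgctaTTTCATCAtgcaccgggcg
Iars, chr13:49682126-49682155, plus strand, element from position 8: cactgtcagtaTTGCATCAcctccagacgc
Tars, chr15:11399655-11399684, minus strand, element from position -15: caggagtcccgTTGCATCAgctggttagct
Yars, chr4:129189895-129189924, plus strand, element from position 4: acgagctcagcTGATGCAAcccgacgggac

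Positions are those of the first base of the element in the gene's direction, with the start site counted as 1 and no position 0. In Aars the element began at position -112, with another copy at position 10 that is not shown. For Aars and Yars the start site lay inside the annotated gene, which begins further upstream. The genes with the element did not share 1 ratio, since they ran from Iars at 0.05 and Gars and Tars at 0.49 to Aars at 0.51 and Yars at 0.57. The E-box CACGTG, read the same on both strands, was found in 4 cytosolic genes (Aars, Farsb, Iars and Tars) of 12, or 33.3%, in 1 mitochondrial gene of 14 (Ears2, 7.14%) and in no scaffold gene, against 7.15% of all promoters and 10.5% of those of genes tested. A match of letters is a description of these windows, and binding was not measured.

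The mitochondrial synthetases were measured at lower levels than their cytosolic counterparts, with a median of 9.598 RPKM in NTB-GMP against 10.41 RPKM in 4T1-GMP. Lars2 (chr9:123366927-123462675), the mitochondrial leucyl enzyme, stood far apart from the rest. It measured 4517 RPKM in NTB-GMP against 4531 RPKM in 4T1-GMP, which is place 6 among all genes in both libraries and 1.75% and 1.76% of the library sizes. That is 186 and 146 times the level of the next mitochondrial synthetase, Iars2, in NTB-GMP and 4T1-GMP. Its log2 ratio was 0.00, from 178473 and 527795 reads, and was -0.16 without Rn45s and -0.05 centered on the median of all genes. What the reads assigned to Lars2 are was not tested and cannot be seen from the RPKM, so its level may not be that of the Lars2 mRNA. The median level, median log2 ratio, count of higher genes and pair counts are also given without it, but the rescaled medians are not. Without Lars2, the mitochondrial median level was 9.257 RPKM and 9.379 RPKM, the median log2 ratio was 0.02, and 8 of 15 genes were higher (53.3%).

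The log2 ratios of the mitochondrial genes ran from -0.46 to 0.35 as deposited, with 4 intervals wholly above 0 and 3 wholly below. Iars2, the isoleucyl enzyme, measured 24.22 RPKM in NTB-GMP against 31 RPKM in 4T1-GMP from 291 and 1098 reads, a log2 ratio of 0.35 (0.17 to 0.55). Aars2, the alanyl enzyme, measured 7.274 RPKM and 8.983 RPKM from 248 and 903 reads, a log2 ratio of 0.30 (0.10 to 0.51). Sars2, the seryl enzyme, measured 9.257 RPKM and 11.44 RPKM from 90 and 328 reads, a log2 ratio of 0.30 whose interval (-0.03 to 0.66) held 0. The recovered reads of Sars2 were the fewest of all members in NTB-GMP. Recovered reads are lower bounds, so this interval may be wider than the full reads would give. Whether it would then hold 0 could not be told. Yars2, the tyrosyl enzyme, had 18.07 RPKM and 22.08 RPKM and a log2 ratio of 0.29. Tars2, the threonyl enzyme, had 13.41 RPKM and 16.06 RPKM and a log2 ratio of 0.26. As deposited, the intervals of Iars2, Aars2, Yars2 and Tars2 lay wholly above 0. The lower bounds of Aars2 (0.10), Yars2 (0.10) and Tars2 (0.07) were smaller than the shift of 0.16 from leaving out Rn45s, and that of Iars2 was 0.17. The upper bounds of Hars2 (0.11), Vars2 (0.05) and Lars2 (0.01) were also smaller than this shift. Wars2, at 2.574 RPKM and 3.075 RPKM, and Nars2, at 4.578 RPKM and 5.341 RPKM, had log2 ratios of 0.25 and 0.22 with intervals that held 0.

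At the lower end stood the glutamyl and phenylalanyl enzymes. Ears2, which charges mitochondrial tRNA with glutamate and had the lowest level of all members, measured 2.092 RPKM in NTB-GMP against 1.49 RPKM in 4T1-GMP from 139 and 292 reads, a log2 ratio of -0.46 (-0.79 to -0.19). Fars2, which unlike its cytosolic counterpart works as a single chain, measured 16.16 RPKM and 11.98 RPKM from 156 and 341 reads, a log2 ratio of -0.43 (-0.71 to -0.15). Cars2, the cysteinyl enzyme, measured 17.47 RPKM and 15.14 RPKM from 329 and 841 reads, a log2 ratio of -0.20 (-0.39 to -0.02). The intervals of these 3 genes lay wholly below 0. Vars2, the valyl enzyme, had 9.103 RPKM and 7.997 RPKM and a log2 ratio of -0.18 with an interval that held 0. Pars2 (prolyl), Hars2 (histidyl), Rars2 (arginyl) and Mars2 (methionyl) lay between -0.11 and 0.02. The mitochondrial class I genes had a median log2 ratio of 0.00, which was the value of Lars2 itself, and the 7 class II genes had 0.22.

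Setting the enzymes for the same amino acid side by side gave 17 pairs of a cytosolic and a mitochondrial gene, since Eprs pairs with both Ears2 and Pars2, and both Farsa and Farsb pair with Fars2. The log2 ratio of the cytosolic gene was above that of the mitochondrial gene in 15 of 17 pairs, with a median difference of 0.39. In 9 pairs the cytosolic interval lay wholly above the mitochondrial one. Without the pair of Lars and Lars2, these counts were 14 and 8 of 16. The widest gaps were those of Eprs over Ears2 (0.87), Farsb over Fars2 (0.81), Cars over Cars2 (0.80) and Farsa over Fars2 (0.79), of which the phenylalanyl pairs share Fars2. In 1 pair, Iars and Iars2, the order was turned, with intervals apart and a difference of -0.30. Iars2 (chr1:185286642-185329419) lies near Eprs (chr1:185361417-185428360), the gene with the widest gap to its mitochondrial counterpart. Sars and Sars2 differed by -0.03, and Vars and Vars2 by 0.01, so the valyl enzymes of both compartments were lower in 4T1-GMP to nearly the same extent. A common shift such as that of Rn45s cancels within a pair, and the count was 15 without Rn45s and 12 after quantile normalization.

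In levels, the cytosolic gene exceeded the mitochondrial one in 15 of the 16 pairs without Lars2 in NTB-GMP, with a median level ratio of 3.48 in NTB-GMP and 4.61 in 4T1-GMP. Cars was the exception, at 0.654 of the level of Cars2 in NTB-GMP and 1.15 times its level in 4T1-GMP, so the order of the cysteinyl enzymes was turned between the libraries. The level ratio of Eprs over Ears2 was 38.3 in NTB-GMP and 71.3 in 4T1-GMP, and that of Nars over Nars2 was 23.7 and 27.1. Yars was at 1.04 times the level of Yars2 in NTB-GMP and 1.26 times in 4T1-GMP.

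**Figure D3:**
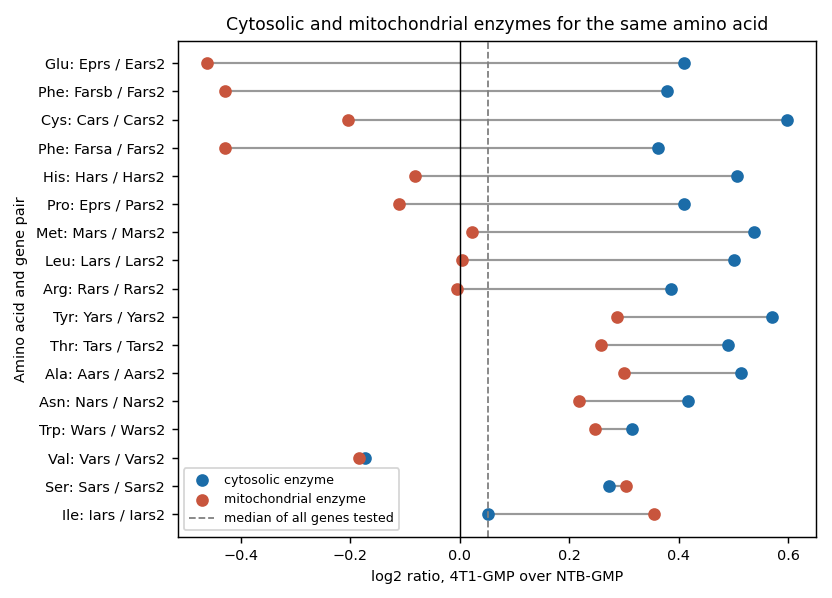
Log2 ratio (4T1-GMP over NTB-GMP, horizontal axis) of the cytosolic (blue) and mitochondrial (red) gene for each amino acid, joined by a line and ordered by the gap, with the median of all genes tested (0.05) as a dashed line. The blue point lies right of the red one in 15 of 17 pairs (12 after quantile normalization), by up to 0.87 for glutamate, and left of it for isoleucine and serine.

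Other steps of tRNA handling and translation were read from lists of related genes, with the cytosolic median of 0.40 as the point of reference. Of the 25 genes of tRNA maturation and editing tested, 19 were higher (76%, against 54.7% of all genes tested), with a median log2 ratio of 0.23. At least 1.5-fold higher was 1, a smaller share than the 9.8% of all genes tested. That gene was Xpot, the exportin that carries mature tRNAs out of the nucleus, at 32.93 RPKM in NTB-GMP against 53.58 RPKM in 4T1-GMP, a log2 ratio of 0.70. Prorsd1, a relative of editing domains of prolyl enzymes, had a log2 ratio of 0.56. The lowest were Pop4 at -0.45 and Pop5 at -0.19, both subunits of ribonuclease P, and Tsen34, a subunit of the tRNA splicing endonuclease, at -0.08. Of the 10 factors of mitochondrial translation, 8 were higher (80%), with a median of 0.25, whereas the mitochondrial synthetases had 0.01. Tsfm (0.58) and Gfm1 (0.47), which are elongation factors, and the ribosome recycling factor Mrrf (0.50) had the highest log2 ratios, and the release factor Mtrf1l (-0.58) and the initiation factor Mtif2 (-0.40) the lowest, followed by Mtif3 at 0.03.

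The 6 cytosolic elongation factors, which carry charged tRNAs to the ribosome and move it along the mRNA, had a median log2 ratio of 0.02 that was -0.14 without Rn45s and -0.13 after quantile normalization. Eif5a was the highest of them, at 346.7 RPKM and 501.7 RPKM, a log2 ratio of 0.53, followed by Eef1d at 0.28 and Eef1g at 0.07. Eef1a1, which receives charged tRNAs and delivers them to the ribosome, measured 5595 RPKM and 5490 RPKM and had a log2 ratio of -0.03, Eef2 had -0.05 and Eef1b2 had -0.08. Of the 10 genes of indirect charging and selenocysteine synthesis, 5 were higher (50%, near the 54.7% of all genes tested), with a median of 0.08 that was -0.09 without Rn45s. Sephs2, which makes selenophosphate, had 0.46, Pstk 0.36 and Qrsl1, the amidase subunit by which mitochondria make glutaminyl-tRNA, 0.28. Gatc, another subunit of that amidase, had -0.18, Secisbp2 -0.13 and Eefsec -0.10 as log2 ratios.

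The amino acid response list (without synthetases) had 22 of 29 genes tested, of which 16 were higher (72.7%, against 54.7% of all genes tested), with a median log2 ratio of 0.34. At least 1.5-fold higher were 6 and at least 1.5-fold lower 2, where the shares of all genes tested were 9.8% and 11.6%. The highest were Asns, asparagine synthetase, with 11.16 RPKM in NTB-GMP against 33.04 RPKM in 4T1-GMP and a log2 ratio of 1.56, Mthfd2 of mitochondrial folate metabolism, with 7.782 RPKM and 18.48 RPKM and a log2 ratio of 1.24, and the transcription factor Atf5, with 3.253 RPKM and 7.255 RPKM and a log2 ratio of 1.13. Atf4 itself measured 88 RPKM and 128.7 RPKM, a log2 ratio of 0.55. Lower were Ppp1r15a, the phosphatase subunit that reverses eIF2 phosphorylation, with 10.99 RPKM and 5.198 RPKM and a log2 ratio of -1.07, Ddit3 (CHOP) with 6.428 RPKM and 4.207 RPKM and a log2 ratio of -0.60, and Cebpg with 11.82 RPKM and 7.985 RPKM and a log2 ratio of -0.56. The list thus held larger differences in both directions than the synthetases, whose highest cytosolic log2 ratio was 0.60.

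Of the 14 genes for eIF2, eIF2B and the eIF2 kinases, 11 were higher (78.6%, against 54.7% of all genes tested), with a median log2 ratio of 0.28. The eIF2 subunits Eif2s1 (42.63 RPKM and 67.9 RPKM, log2 ratio 0.67) and Eif2s2 (0.64) and the eIF2B subunit Eif2b1 (0.58) had the highest ratios, and the kinases Eif2ak4 (-0.18), Eif2ak1 (-0.14) and Eif2ak3 (-0.14) the lowest. Interferon-stimulated genes were listed because Wars is among the genes that interferon induces. Of the 18 of 24 that were tested, 5 were higher (27.8%, against 54.7% of all genes tested), with a median of -0.24, the lowest being Irf7 (-0.91), Gbp2 (-0.89) and Irf9 (-0.71) and the highest Oas1a (0.42) and Ifit2 (0.41). Wars, at 0.31, lay above 16 of these 18 genes. Without Rn45s, the medians of the tRNA maturation, mitochondrial translation factor, amino acid response and eIF2 lists were 0.07, 0.09, 0.18 and 0.12, and that of the interferon list was -0.40, so these kept their signs.

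**Figure D4:**
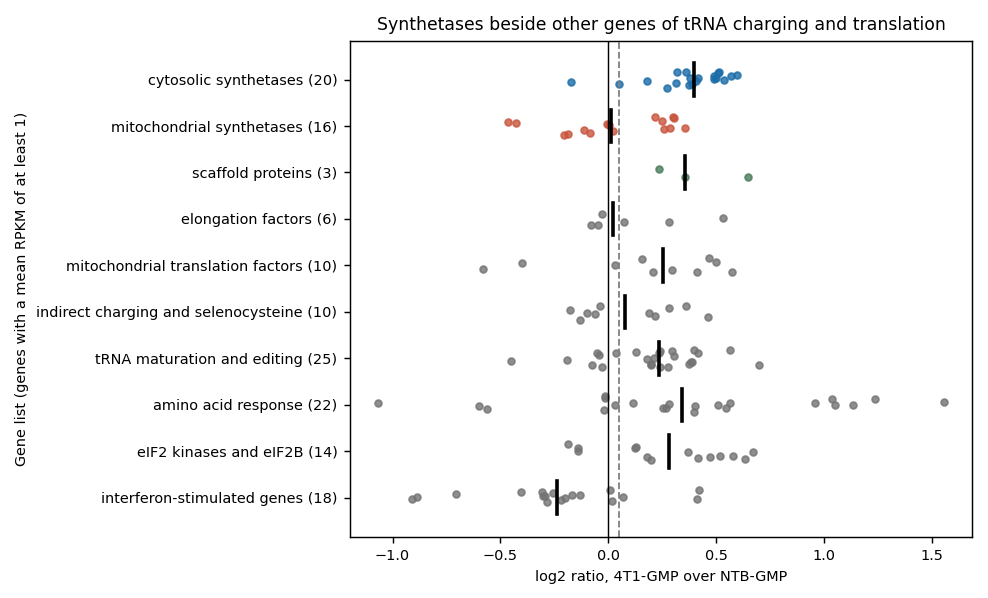
Log2 ratio (4T1-GMP over NTB-GMP, horizontal axis) of each gene with a mean of at least 1 RPKM, 1 point per gene, in the synthetase groups and in 7 lists of related genes, with a black bar for each list's median and a dashed line for the median of all genes tested (0.05). Cytosolic synthetases cluster around 0.40 and the amino acid response list spreads from -1.07 to 1.56; without Rn45s in the library sizes the medians of the mitochondrial synthetases, elongation factors and indirect charging lists fall below 0.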

How the data were processed

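Bulk RNA-seq of sorted GMPs was analyzed in 2 libraries, 1 per group. The deposited values were RPKM per gene symbol, which the authors had made by dividing reads by gene length and library size. The submitters' processing notes name CASAVA 1.8.2, cutadapt 1.2.1, TopHat2 2.0.13, Picard 1.97, HTSeq 0.6.1, edgeR 3.12.1 and the build mm10, without their roles. The strandedness of the libraries was not given in the sources used here. Library sizes recovered from the values were not whole numbers, so a scaling factor had entered them.

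The RPKM kept enough digits to recover whole reads and gene lengths. In values simulated for the comparison of 4T1-GMP with NTB-GMP, this gave the right read ratio in 100% of the 13399 genes above 0 in both libraries, and the exact reads in 85.4% of 14408 genes above 0. In the others a common factor was missing from both reads, so reads are lower bounds and the intervals of such genes are wider than their full reads would give. The intervals can also be too narrow, since they take PCR reads as independent molecules.

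Log2 ratios were taken as log2((4T1-GMP RPKM + 0.1)/(NTB-GMP RPKM + 0.1)) over genes with a mean of at least 1 RPKM. With 1 library per group, no test was made, and lists were described by counts and medians beside all genes tested. Python 3.11.15, numpy 2.4.6, pandas 2.3.3, scipy 1.17.1 and matplotlib 3.10.9 were used. The members, gene lists and motifs were chosen with earlier results of these data known, so the lists are no independent support for any direction. Full values were given for the 5 highest and 5 lowest ratios of the cytosolic set, the 3 highest and 3 lowest of the mitochondrial set, Gars, Kars, Farsa, Farsb, Eprs and the scaffold genes, and of each related list the 3 highest and 3 lowest log2 ratios were named, except for a few genes that are not reported here. Lars2, Atf4, Eef1a1 and Nars were singled out after their values were seen. Promoters and coordinates came from RefSeq on GRCm38.p6, the assembly that mm10 holds. Alternatives were other pseudocounts (1 and 0.01), other minimum levels, quantile normalization, Rn45s left out of the library sizes, centering on the median of all genes, and leaving out Gars and Kars.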

Additional observations from a re-analysis of the deposited data

How the results depend on the processing

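No paired analysis was possible because NTB-GMP and 4T1-GMP were 1 library each. Leaving out a replicate was not possible either, and error between mice could not be had. The cytosolic median log2 ratio of 0.40 was 0.21 after quantile normalization, 0.23 without Rn45s in the library sizes and 0.35 centered on the median of all genes. The mitochondrial median of 0.01 was -0.15 without Rn45s and -0.037 when centered. The difference of these medians, 0.38, was 0.16 after quantile normalization and 0.37 with Lars2 left out, which was chosen once the data had been seen. The count of cytosolic genes past 1.5-fold, 1 as deposited, was 0 with a pseudocount of 1, after quantile normalization, without Rn45s and when centered, and 14 when a gene 25% higher was counted. The mitochondrial count, 0 as deposited, was 2 without Rn45s and 3 at that lower limit (25% higher or 20% lower). The count of higher cytosolic genes was 17 after quantile normalization, 18 without Rn45s and 17 of 18 with Gars and Kars left out. Under other pseudocounts and scalings, which can move a single gene, 125 values for 25 named members were had, of which 95 stayed within their counting interval, 25 left it and 5 turned sign: Iars to -0.10 (quantile normalization) and -0.11 (without Rn45s), Qars to -0.018 (quantile normalization), and Lars2 to -0.16 (without Rn45s) and -0.046 (centered). A minimum mean of 5 RPKM left 12 mitochondrial members, of which 7 were higher, and 11 of 13 pairs with the cytosolic gene above. Without Lars2, the interval held 0 for 8 of 15 mitochondrial genes, which had 90 to 345 recovered reads (lower bounds) in NTB-GMP.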
